A study of Homo sapiens with 12 samples.

Results

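The genes of 10 enzymes that make serine and carry its carbon through folate were followed across 4 groups of HT29 cells. They are 10 of the 20015 genes in the count table and were taken by symbol through their Ensembl identifiers. PHGDH, PSAT1 and PSPH make serine from the glycolytic intermediate phosphoglycerate. SHMT1 and MTHFD1 work on folate in the cytosol, and SHMT2, MTHFD2, MTHFD1L and ALDH1L2 work on folate in mitochondria. PCK2 is the mitochondrial phosphoenolpyruvate carboxykinase, which can feed carbon from the citric acid cycle back towards serine. All 10 were found in the table and all 10 passed the filter on low counts.

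Serine hydroxymethyltransferases move a carbon unit from serine onto tetrahydrofolate and release glycine. Mitochondria oxidise that unit and export it as formate, and the cytosol turns formate into folate forms used for purines, thymidylate and methylation. Several genes of this route are textbook targets of ATF4, the transcription factor made when translation initiation is slowed under stress. Because the cytosolic and mitochondrial steps have separate genes, the relative level of paralogs can be read from RNA.

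HT29 is a human colorectal adenocarcinoma line. Every library came from HT29 cells that express the nuclease Cas9 and carried a lentiviral guide, and the media and lysis were the same. WT DMSO and WT Tm cells had a non-targeting guide. QRICH1 KO DMSO and QRICH1 KO Tm cells had a guide against QRICH1, a transcriptional regulator. Tm stands for tunicamycin, which blocks the first step of protein N-glycosylation and so causes stress in the endoplasmic reticulum. It was given at 0.3 ug/ml for 14 h, and DMSO is the solvent control. Each group had 3 libraries, made with a modified Smart-seq2 protocol and described by the submitters as biological replicates. Whether the knockout cells were 1 clone or a mixed population is not given in the sources used here.

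Libraries held 6856736 to 17861844 counts. Under DMSO, QRICH1 RNA was 29.6 ± 6.26 CPM in WT and 24.1 ± 0.714 CPM in the knockout (SD, n = 3). Under Tm it was 29.2 ± 3.04 and 22.8 ± 3.84 CPM. It was not called lower under DMSO (edgeR adjusted p = 0.577) or Tm (edgeR adjusted p = 0.352), so the RNA does not check the knockout labels. ATF4 RNA rose 3.23-fold with Tm in WT (edgeR adjusted p = 8.19e-09) and 2.44-fold in QRICH1 KO (edgeR adjusted p = 4.3e-07). Of the listed markers of colon epithelium, KRT8, KRT18, KRT19 and EPCAM had means of 45059.5, 26186.3, 2867.5 and 1675.8 CPM. KRT20, LGALS4, CDH1 and VIL1 had means of 382.7, 345.1, 170.2 and 65.9 CPM. The remaining markers CEACAM5, CDX2 and CDX1 were low, at 1.29, 0.684 and 0.00471 CPM. Of 18 markers of blood, stromal, endothelial and liver cells, 17 had a mean under 1 CPM. Libraries QRICH1 KO DMSO 3 and QRICH1 KO Tm 3 had the most genes detected, 15340 and 14813, against 13124 to 14094 in the others. Values without those libraries are given where they change a call.

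Levels are counts per 1000000 counts of a library (CPM) scaled with edgeR's TMM factors. A gene was called where edgeR's quasi-likelihood test had a Benjamini-Hochberg adjusted p under 0.05 over the 11323 genes tested. Fold changes come from that fit of all 12 libraries. In bulk RNA, a change in the share of cells that express a gene and a change in RNA per cell cannot be told apart.

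Sequence before a RefSeq start of a cytosolic and a mitochondrial enzyme that moved in opposite directions with Tm is shown first, with a short stretch of MTHFD1L. RefSeq (GRCh38.p14) gave start windows, 250 bases before to 50 after a start, for 7 of the 10 genes. Both strands were searched for TGATGNAA, the common core of sites bound by ATF4 with a C/EBP partner, for CACGTG, the E-box, for TGACGT, part of a cyclic AMP response element, and for CCACG, the part of the ER stress element that ATF6 contacts. The sequences below run 5′ to 3′ on the plus strand, which is the gene strand. Capitals mark CACGTG in MTHFD1, CCACG on either strand in MTHFD2 and TGATGNAA in MTHFD1L. Matches of the other motifs are not marked. MTHFD1 is chr14:64388103-64388352, with CACGTG starting 15 bases before the start. It also holds a CCACG match, CGTGG, 13 bases before the start, which is not marked as such. MTHFD2 is chr2:74198365-74198614, with CCACG 44 bases and CGTGG 22 bases before the start. MTHFD1L is chr6:150866346-150866375, with TGATGCAA 129 bases before one annotated start and 90 bases before another. Each start here is a RefSeq start. The GENCODE gene spans given below begin further upstream, at 64388031 for MTHFD1, 74198562 for MTHFD2 and 150865549 for MTHFD1L. The marked matches therefore lie inside those spans. Whether the upstream starts are used in these cells was not tested.
MTHFD1: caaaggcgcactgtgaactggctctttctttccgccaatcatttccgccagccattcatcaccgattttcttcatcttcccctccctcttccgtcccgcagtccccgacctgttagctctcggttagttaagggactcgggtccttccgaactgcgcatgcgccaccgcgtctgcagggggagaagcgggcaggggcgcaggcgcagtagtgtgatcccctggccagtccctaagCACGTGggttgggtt
MTHFD2: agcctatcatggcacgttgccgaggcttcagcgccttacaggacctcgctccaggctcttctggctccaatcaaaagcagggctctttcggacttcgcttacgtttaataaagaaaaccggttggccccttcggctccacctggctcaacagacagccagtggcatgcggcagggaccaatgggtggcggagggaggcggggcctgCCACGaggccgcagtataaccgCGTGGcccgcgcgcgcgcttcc
MTHFD1L: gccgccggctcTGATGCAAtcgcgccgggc
Of the 7 genes with a window, MTHFD1L held the TGATGNAA match, and for another of its starts the match lies inside the transcribed part. MTHFD1L had 4 windows and each of the other genes 1, and this match is the same site in several overlapping windows. No window of the 7 genes held TGACGT. The shares that follow are per window, not per gene. Over all 35116 RefSeq windows of the same length, 3.62% hold TGATGNAA, 7.26% hold CACGTG, 7.98% hold TGACGT and 38.1% hold CCACG. Windows of MTHFD1L also hold CACGTG and CCACG, and in both MTHFD1 and MTHFD1L a CCACG match shares bases with CACGTG. The matches are letters in these windows and were not tested as binding sites.

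The serine synthesis genes rose together with Tm in both genotypes. PHGDH, PSAT1 and PSPH were higher in all 3 Tm libraries than in all 3 DMSO libraries of each genotype, by 2.33-fold, 7.75-fold and 1.9-fold in WT and by 1.89-fold, 5.15-fold and 1.52-fold in QRICH1 KO. Over all 10 enzymes, 7 were called higher, 2 lower and 1 not in WT, where 12.6% of genes tested were higher and 11.1% lower. In QRICH1 KO, 6 were called higher, 2 lower and 2 not, against 9.09% and 6.53% of genes tested. The median log2 fold change of the 10 was 1.07 in WT and 0.76 in QRICH1 KO, beside -0.02 and 0.00 over all genes tested. These comparisons share no library. The plot of levels by library shows each value.

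**Figure D1:**
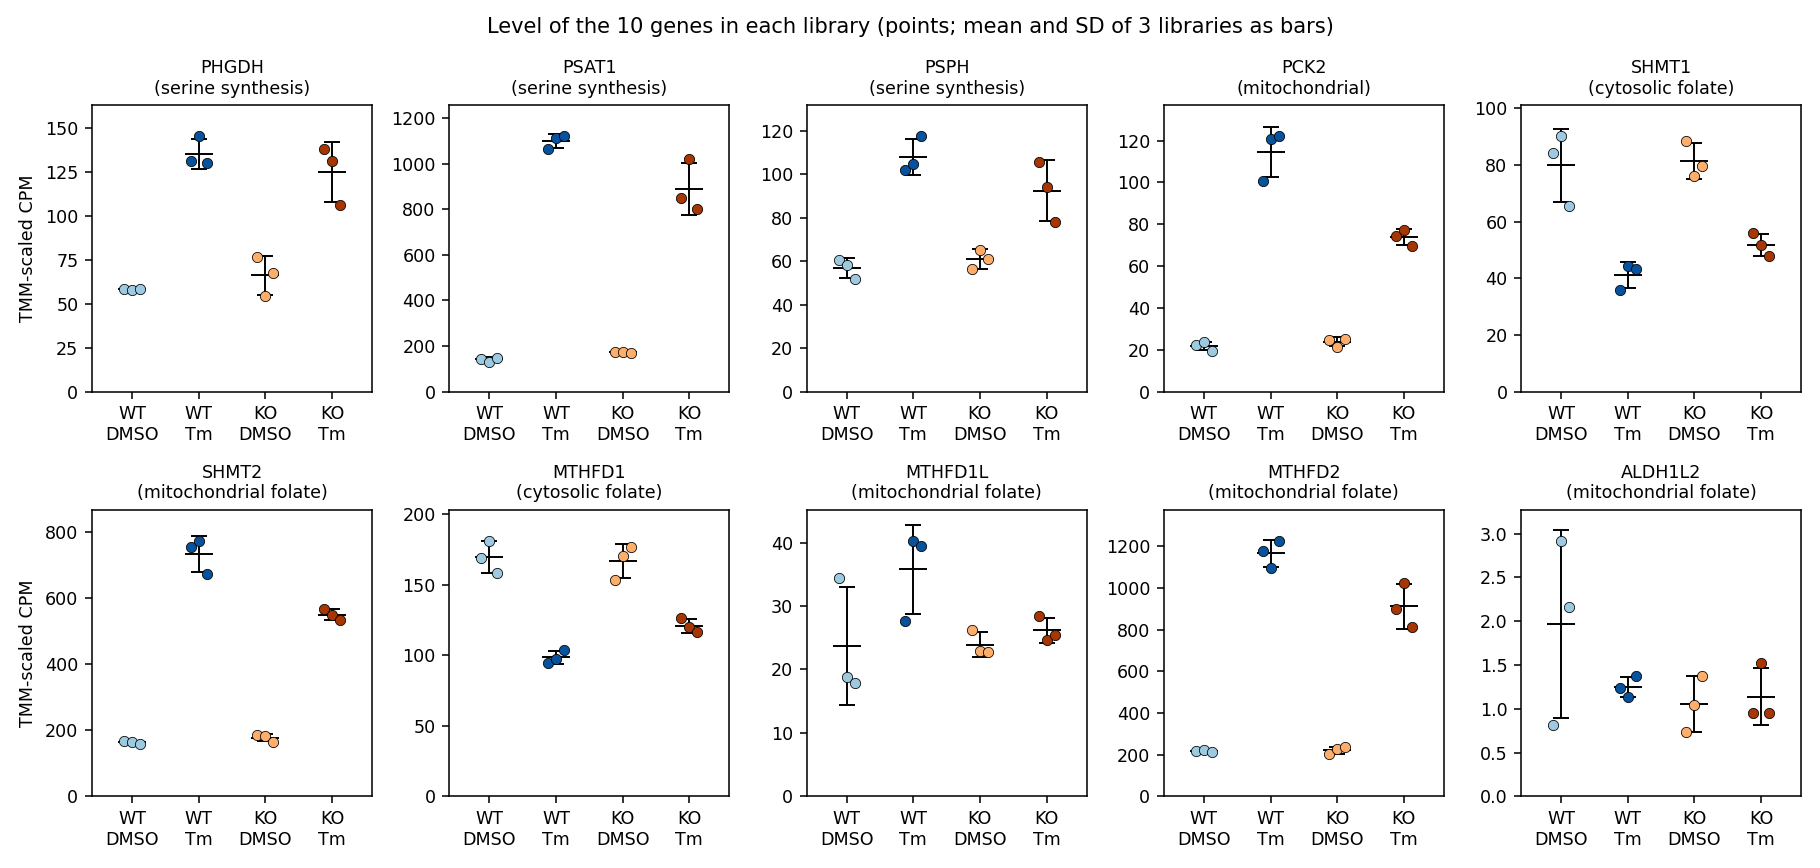
Level of each of the 10 enzymes in every library, in TMM-scaled CPM on a linear axis from 0, with a separate scale in each panel; points are libraries, and bars give the mean and SD of the 3 libraries in a group. PSAT1, SHMT2, MTHFD2 and PCK2 sit several times higher in both Tm groups, SHMT1 and MTHFD1 sit lower there, and ALDH1L2 stays below 3 CPM in every library.

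PHGDH (ENSG00000092621.12, hg38 chr1:119648411-119744226 in GENCODE 29, plus strand; the other gene spans use the same build) encodes phosphoglycerate dehydrogenase, the entry step of serine synthesis. Its level was 58.5, 57.9 and 58.4 CPM in WT DMSO and 131.1, 145.5 and 130.0 CPM in WT Tm. The knockout libraries gave 76.5, 54.7 and 67.3 CPM under DMSO and 138.4, 131.2 and 106.1 CPM under Tm. Tm and DMSO libraries did not overlap in either genotype, and the genotypes overlapped under both treatments. The log2 fold change with Tm was 1.22 (SE 0.131, edgeR adjusted p = 1.34e-06) in WT and 0.92 (SE 0.129, edgeR adjusted p = 5.75e-05) in QRICH1 KO.

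PSAT1 (ENSG00000135069.14, chr9:78297143-78330093, plus strand), phosphoserine aminotransferase, takes nitrogen from glutamate in the middle step. It stood at 143.7, 131.8 and 149.9 CPM in WT DMSO and at 1065.3, 1111.5 and 1120.6 CPM in WT Tm. QRICH1 KO libraries held 175.7, 173.1 and 168.7 CPM under DMSO and 848.0, 1019.0 and 801.3 CPM under Tm. Every knockout library was above every WT library under DMSO and below every WT library under Tm. Neither genotype difference was called, at log2 0.28 (SE 0.107, edgeR adjusted p = 0.439) under DMSO and -0.31 (SE 0.106, edgeR adjusted p = 0.2) under Tm. The Tm response was log2 2.95 (SE 0.114, edgeR adjusted p = 1.24e-12) in WT and 2.37 (SE 0.111, edgeR adjusted p = 3.91e-11) in QRICH1 KO. GENCODE 29 lists 4 pseudogenes named after PSAT1, and how the counting split shared reads is not given in the sources used here, so its level is uncertain to that extent.

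PSPH (ENSG00000146733.14, chr7:56011051-56051604, minus strand), phosphoserine phosphatase, releases free serine in the last step. Its level was 60.7, 58.3 and 51.8 CPM in WT DMSO and 101.9, 104.8 and 117.5 CPM in WT Tm. In QRICH1 KO it was 56.4, 65.2 and 61.2 CPM under DMSO and 105.4, 94.2 and 78.0 CPM under Tm. The treatments did not overlap within a genotype. The log2 fold change was 0.93 (SE 0.124, edgeR adjusted p = 2.02e-05) in WT and 0.60 (SE 0.123, edgeR adjusted p = 0.00232) in QRICH1 KO, the smallest called rise of the serine synthesis genes. It has 1 named pseudogene.

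PCK2 (ENSG00000100889.11, chr14:24094053-24110598, plus strand) rose from a low level. It was 22.3, 23.6 and 19.5 CPM in WT DMSO and 100.6, 120.5 and 122.1 CPM in WT Tm. The QRICH1 KO values were 24.6, 21.3 and 25.4 CPM under DMSO and 74.3, 77.4 and 69.8 CPM under Tm. Under Tm all knockout libraries lay below all WT libraries, and under DMSO the genotypes overlapped. The Tm response was 5.24-fold in WT (log2 2.39, SE 0.126, edgeR adjusted p = 6.57e-11) and 3.1-fold in QRICH1 KO (log2 1.63, SE 0.122, edgeR adjusted p = 1.64e-08). Its cytosolic paralog PCK1 was near absent, with counts in WT DMSO 1 (4) and QRICH1 KO DMSO 3 (11) and 0 in the other libraries, so it was not tested and no ratio was formed.

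Some of the folate enzymes split by compartment. The mitochondrial SHMT2 and MTHFD2 rose with Tm in both genotypes, and the cytosolic SHMT1 and MTHFD1 fell in both. SHMT2 rose 4.48-fold in WT and 3.09-fold in QRICH1 KO, and MTHFD2 rose 5.36-fold and 4.12-fold. SHMT1 went to 0.515 and 0.636 of its DMSO level, and MTHFD1 to 0.581 and 0.724. The other mitochondrial folate enzymes did not rise in both genotypes. MTHFD1L was called higher in WT and not in QRICH1 KO. ALDH1L2 was called in no comparison, at log2 -0.73 with Tm in WT and 0.10 in QRICH1 KO.

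SHMT1 (ENSG00000176974.20, chr17:18327860-18363563, minus strand) is the cytosolic serine hydroxymethyltransferase. Its level was 84.0, 90.1 and 65.3 CPM in WT DMSO and 36.0, 44.3 and 43.2 CPM in WT Tm. The knockout libraries gave 88.4, 76.2 and 79.6 CPM under DMSO and 55.8, 51.7 and 47.9 CPM under Tm. It was lower in every Tm library, and under Tm each knockout library was above each WT library. The change with Tm was log2 -0.96 (SE 0.134, edgeR adjusted p = 3.27e-05) in WT and -0.65 (SE 0.131, edgeR adjusted p = 0.00212) in QRICH1 KO. The genotype difference under Tm was log2 0.33 (SE 0.134, edgeR adjusted p = 0.282) and was not called.

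SHMT2 (ENSG00000182199.11, chr12:57229327-57234935, plus strand) is the mitochondrial counterpart. It stood at 168.6, 164.1 and 159.2 CPM in WT DMSO and at 754.7, 774.5 and 673.3 CPM in WT Tm. QRICH1 KO libraries held 184.8, 183.5 and 166.0 CPM under DMSO and 568.2, 549.3 and 533.3 CPM under Tm. No Tm library overlapped a DMSO library, and under Tm the knockout libraries were all lower than WT. The Tm response was log2 2.16 (SE 0.101, edgeR adjusted p = 1.79e-11) in WT and 1.63 (SE 0.0996, edgeR adjusted p = 1.11e-09) in QRICH1 KO.

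MTHFD1 (ENSG00000100714.16, chr14:64388031-64463457, plus strand) is the cytosolic enzyme that turns formate into the folate forms used for purines and thymidylate. Its level was 169.0, 181.1 and 158.2 CPM in WT DMSO and 94.8, 97.3 and 103.5 CPM in WT Tm. In QRICH1 KO it was 153.6, 170.4 and 176.5 CPM under DMSO and 126.2, 120.1 and 116.1 CPM under Tm. It was lower in every Tm library, and under Tm the knockout libraries were all above WT. The change was log2 -0.78 (SE 0.102, edgeR adjusted p = 1.41e-05) in WT and -0.47 (SE 0.101, edgeR adjusted p = 0.0037) in QRICH1 KO. Its RefSeq start window is the one with the E-box printed above. MTHFD1 and SHMT1 each have 1 named pseudogene.

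MTHFD2 (ENSG00000065911.12, chr2:74198562-74217565, plus strand) is the mitochondrial methylenetetrahydrofolate dehydrogenase and cyclohydrolase. It stood at 216.8, 221.3 and 213.9 CPM in WT DMSO and 1174.8, 1096.9 and 1225.8 CPM in WT Tm. The QRICH1 KO values were 203.5, 225.1 and 234.5 CPM under DMSO and 898.0, 1024.1 and 810.6 CPM under Tm. The treatments did not overlap in either genotype, and under Tm all knockout libraries were below all WT libraries. The response was log2 2.42 (SE 0.113, edgeR adjusted p = 1.59e-11) in WT and 2.04 (SE 0.111, edgeR adjusted p = 2.44e-10) in QRICH1 KO. Of its annotated exon bases, 27.2% overlap SLC4A5 on the opposite strand, and the library method does not mark strand. SLC4A5 had group means of 0.135 to 0.343 CPM. GENCODE 29 also names 7 pseudogenes of MTHFD2, and the split of reads with them was not tested.

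MTHFD1L (ENSG00000120254.15, chr6:150865549-151101887, plus strand), the mitochondrial formate-tetrahydrofolate ligase, releases formate for export. It was 34.4, 18.8 and 17.8 CPM in WT DMSO and 27.7, 40.3 and 39.4 CPM in WT Tm. The knockout libraries gave 26.2, 22.9 and 22.7 CPM under DMSO and 28.5, 24.7 and 25.5 CPM under Tm. The WT groups overlapped because WT DMSO 1 was above WT Tm 1, and the knockout groups overlapped too. The change was 1.54-fold in WT (log2 0.62, SE 0.208, edgeR adjusted p = 0.0378) and log2 0.13 in QRICH1 KO (edgeR adjusted p = 0.725), and the difference between these responses was not called (log2 -0.49, SE 0.292, edgeR adjusted p = 0.811). Without WT DMSO 1 the WT change was log2 0.96 (edgeR adjusted p = 0.000582). The call was lost without WT DMSO 2 or 3, WT Tm 2 or 3, QRICH1 KO DMSO 2 or QRICH1 KO Tm 2, at adjusted p values of 0.0502 to 0.18, and with upper-quartile factors (0.0553) or the 6 WT libraries alone (0.0562).

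ALDH1L2 (ENSG00000136010.14, chr12:105019784-105084577, minus strand), the mitochondrial formyltetrahydrofolate dehydrogenase that makes NADPH, was close to the detection limit. It had 6, 48 and 29 counts in WT DMSO, 15, 14 and 9 in WT Tm. The knockout had 13, 15 and 22 counts under DMSO and 12, 13 and 12 under Tm. That is 1.97 ± 1.07, 1.25 ± 0.116, 1.05 ± 0.321 and 1.14 ± 0.328 CPM (SD, n = 3), with overlap between all groups. Its response to Tm was log2 -0.73 (SE 0.465, edgeR adjusted p = 0.287) in WT and 0.10 (SE 0.482, edgeR adjusted p = 0.922) in QRICH1 KO. With 6 to 48 counts in a library, changes of this size were not called. Whether greater depth would separate the groups was not tested.

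**Figure D2:**
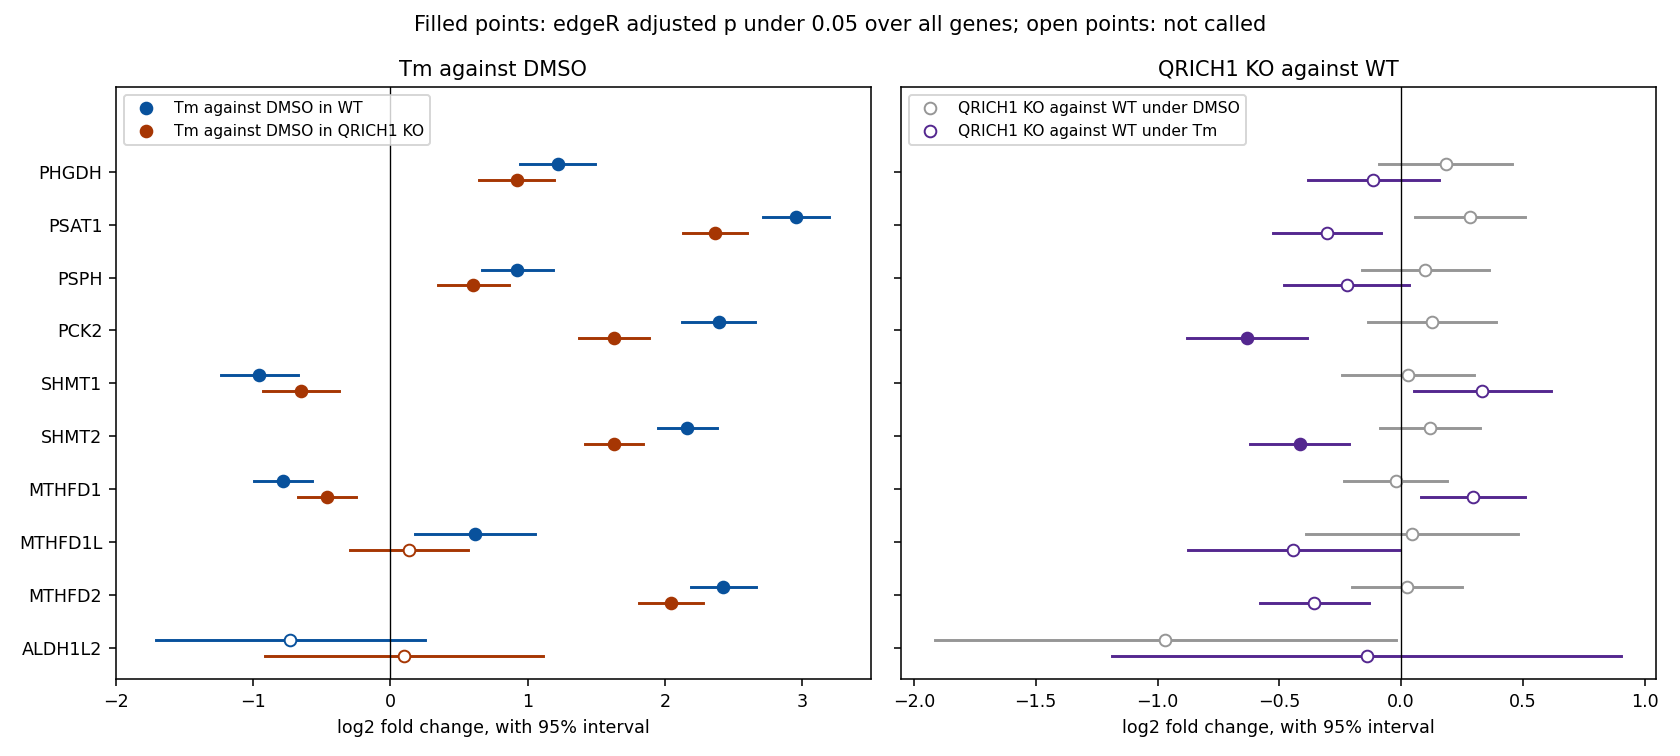
Log2 fold changes of the 10 enzymes with their 95% intervals, Tm against DMSO in each genotype on the left and QRICH1 KO against WT under each treatment on the right; filled points passed edgeR's adjusted p under 0.05. The cytosolic SHMT1 and MTHFD1 lie left of 0 in both genotypes, and of the knockout differences those of SHMT2 and PCK2 under Tm are filled.

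Paralog pairs were compared within each library, where library scaling cancels. The level of such a ratio depends on both gene lengths, so only its change is read. Values are log2 of the mitochondrial over the cytosolic gene. For the change with Tm, treatment labels were permuted within genotype. For the genotype difference, genotype labels were permuted within treatment. Each exact two-sided test had 400 arrangements, and its smallest p is 0.005. A genotype p belongs to the mean difference over DMSO and Tm, and the difference in a ratio under Tm alone was not tested. The 8 tests were adjusted together.

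SHMT2 over SHMT1 was 1.0, 0.86 and 1.28 in WT DMSO and 4.39, 4.12 and 3.96 in WT Tm. QRICH1 KO libraries held 1.06, 1.27 and 1.06 under DMSO and 3.35, 3.40 and 3.47 under Tm. The pair shifted towards the mitochondrial gene in every Tm library, and under Tm the shift was smaller in every knockout library. The mean change with Tm was 2.69 (3.11 in WT and 2.28 in QRICH1 KO; exact permutation p = 0.005, adjusted p = 0.0133). Between genotypes it was -0.33 (0.08 under DMSO and -0.75 under Tm; exact permutation p = 0.075, adjusted p = 0.136).

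MTHFD2 over MTHFD1 was 0.36, 0.29 and 0.44 in WT DMSO and 3.63, 3.49 and 3.56 in WT Tm. In QRICH1 KO it was 0.41, 0.40 and 0.41 under DMSO and 2.83, 3.09 and 2.80 under Tm. The DMSO libraries of both genotypes overlapped, and the Tm libraries did not. The mean change with Tm was 2.85 (3.20 in WT and 2.50 in QRICH1 KO; exact permutation p = 0.005, adjusted p = 0.0133). Between genotypes it was -0.31 (0.04 under DMSO and -0.65 under Tm; exact permutation p = 0.085, adjusted p = 0.136).

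MTHFD1L over MTHFD1 was -2.29, -3.26 and -3.14 in WT DMSO and -1.77, -1.27 and -1.39 in WT Tm. The QRICH1 KO values were -2.55, -2.88 and -2.95 under DMSO and -2.14, -2.27 and -2.18 under Tm. Every Tm library was above every DMSO library of its genotype, although MTHFD1L itself did not separate the groups. In QRICH1 KO MTHFD1L changed by log2 0.13 with Tm and MTHFD1 by -0.47. MTHFD1 is also the denominator of the MTHFD2 ratio, so the results for these ratios are not independent. The mean change with Tm was 1.01 (1.42 in WT and 0.60 in QRICH1 KO; exact permutation p = 0.005, adjusted p = 0.0133), and between genotypes it was -0.31 (exact permutation p = 0.19, adjusted p = 0.253). ALDH1L2 over its cytosolic paralog ALDH1L1 changed by -0.43 with Tm (exact permutation p = 0.375, adjusted p = 0.429), with library values that overlapped.

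**Figure D3:**
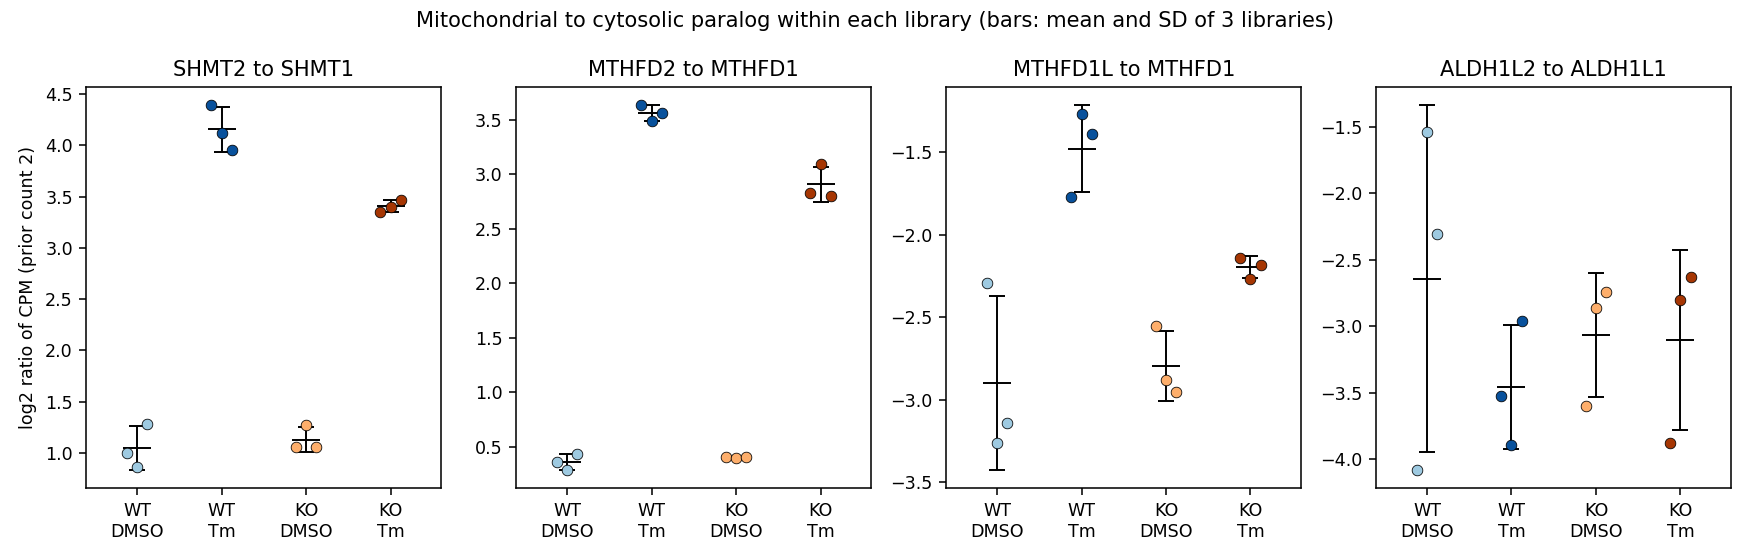
Log2 ratio of the mitochondrial over the cytosolic gene in each library, by group, with the group mean and SD as bars. For SHMT2 over SHMT1 and MTHFD2 over MTHFD1 both Tm groups lie well above both DMSO groups, and the QRICH1 KO Tm libraries lie below the WT Tm libraries.

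Under Tm the knockout held less RNA of SHMT2 and PCK2 than WT. Of the 10 enzymes 2 were called lower and 0 higher, where 0.76% of genes tested were lower and 0.406% higher. PCK2 was at 0.645 of WT (log2 -0.63, SE 0.117, edgeR adjusted p = 0.0108) and SHMT2 at 0.749 (log2 -0.42, SE 0.097, edgeR adjusted p = 0.0438). The median over the 10 was log2 -0.26, beside 0.01 over all genes tested, and the comparison shares its WT Tm libraries with the WT Tm response. These calls were close to the threshold. PCK2 lost its call without WT Tm 2 (log2 -0.59), WT Tm 3 (-0.58) or QRICH1 KO Tm 3 (-0.59), at adjusted p values of 0.0535 to 0.0554. SHMT2 lost its call without any 1 of the 6 Tm libraries, without WT DMSO 2, QRICH1 KO DMSO 1 or QRICH1 KO DMSO 2, without both libraries 3 of QRICH1 KO (adjusted p = 0.0958), with the 6 Tm libraries alone and with upper-quartile factors, with adjusted p values over its alternatives of 0.000239 to 0.16.

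MTHFD2 was lower in the knockout under Tm by log2 -0.36 (SE 0.107) without passing edgeR (adjusted p = 0.13), and DESeq2 called it (log2 -0.38, adjusted p = 0.0168). PHGDH differed by log2 -0.12 (95% interval -0.38 to 0.15, edgeR adjusted p = 0.761) and PSPH by -0.22 (95% interval -0.48 to 0.03, edgeR adjusted p = 0.451). ATF4 RNA in the same comparison differed by -0.20 (SE 0.121, edgeR adjusted p = 0.505). Of the other stress genes checked, HSPA5 was called lower in the knockout (log2 -0.76, SE 0.124, edgeR adjusted p = 0.00484). DDIT3 (-0.25, edgeR adjusted p = 0.494) and ASNS, on few reads (0.09, edgeR adjusted p = 0.966), were not called. Under DMSO none of the 10 enzymes was called by edgeR or DESeq2, where edgeR called 0.0177% of genes tested higher and 0.0795% lower. An unadjusted edgeR p under 0.05 was seen for 2 of the 10 enzymes and for 1027 of the 11323 genes tested. The median log2 difference of the 10 under DMSO was 0.07. The 95% intervals differed in width between the enzymes, from -0.20 to 0.25 for MTHFD2 to -1.91 to -0.02 for ALDH1L2, and that of PSAT1 was 0.06 to 0.51.

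The response to Tm was smaller in the knockout for each of the 8 enzymes called in both genotypes. The knockout response was 0.60 (MTHFD1) to 0.84 (MTHFD2) of the WT response on the log2 scale. Over all genes called in both genotypes in 1 direction, 1094 of 1414 (77.4%) also had the smaller response in the knockout, with a median share of 0.81. For single genes the test is the interaction of genotype and Tm. By edgeR it called 0 of the 10 enzymes and 0% of the genes tested, with 5 of the enzymes and 774 genes at an unadjusted p under 0.05. Among the 5 at an unadjusted p under 0.05, the largest interaction was that of PCK2 (log2 -0.76, SE 0.171, edgeR adjusted p = 0.192), followed by PSAT1 (-0.59, SE 0.15, edgeR adjusted p = 0.282) and SHMT2 (-0.54, SE 0.138, edgeR adjusted p = 0.285), and DESeq2 called these 3 (adjusted p = 0.00999, 0.0124 and 0.00559). Over all genes DESeq2 called 9 higher and 37 lower without edgeR's filter on low counts, and edgeR without that filter called 12 higher and 32 lower, with 0 of the 10 enzymes among them.

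**Figure D4:**
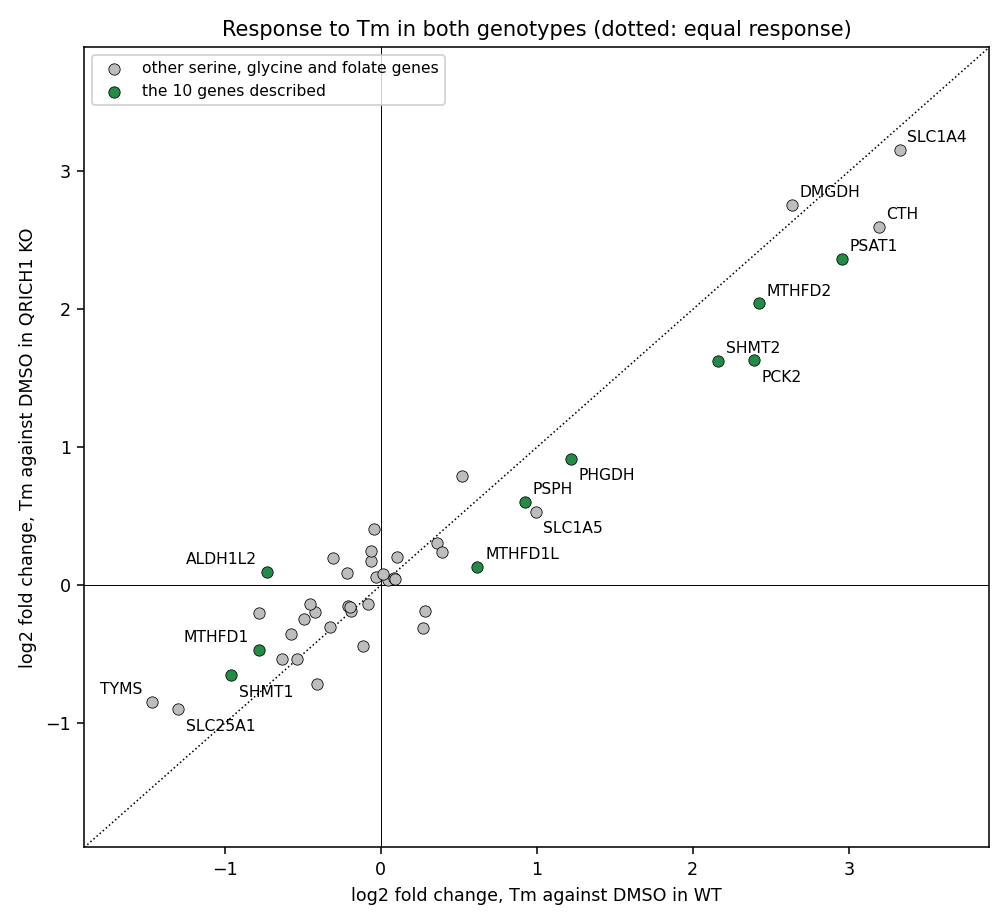
Log2 fold change with Tm in WT (horizontal) against QRICH1 KO (vertical) for the 10 enzymes in green and the other serine, glycine and folate genes tested in grey; the dotted line marks equal responses. Enzymes called in both genotypes lie between the dotted line and 0 on the vertical axis, and most grey points cluster near 0.

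Levels of different genes were compared per kilobase of annotated exons. In WT DMSO the order was PSAT1 (64.8 CPM per kilobase), MTHFD2 (44.6), SHMT2 (33.9), PSPH (20.6), MTHFD1 (18.1), SHMT1 (11), PHGDH (6.32), PCK2 (5.2), MTHFD1L (4.72) and ALDH1L2 (0.231). PSPH and MTHFD1 overlapped in their libraries, and MTHFD1L overlapped both PCK2 and PHGDH. In WT Tm PSAT1 (502.3 CPM per kilobase) was followed by MTHFD2 (239.4), SHMT2 (151.8), PSPH (39.1), PCK2 (27.3), PHGDH (14.7), MTHFD1 (10.5), MTHFD1L (7.13), SHMT1 (5.65) and ALDH1L2 (0.147). MTHFD1L and SHMT1 overlapped there. In QRICH1 KO Tm PSAT1 (406.5 CPM per kilobase), MTHFD2 (187.0) and SHMT2 (113.7) led as well. PSAT1 led in each of these groups, and MTHFD1 and SHMT1 moved down the order.

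The order in the middle rests on the gene length. With the principal transcript in place of all exons, a choice made after seeing the data, SHMT2 (64.6 CPM per kilobase) and MTHFD1 (54.0) came ahead of MTHFD2 (48.8) in WT DMSO, and SHMT2 overlapped PSAT1. In WT Tm the order began PSAT1 (502.3 CPM per kilobase), SHMT2 (289.4) and MTHFD2 (261.6), and SHMT2 and MTHFD2 overlapped. The lengths differ most for PHGDH, with 9217 bases of exons and 2585 in its principal transcript.

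Other genes of serine, glycine and folate metabolism moved in both directions with Tm. Of 48 listed, 36 were tested. In WT 4 were called higher, 7 lower and 25 not, with a median log2 fold change of -0.07, where 12.6% of all genes tested were higher and 11.1% lower. In QRICH1 KO 4 were higher, 5 lower and 27 not, with a median of -0.05, against 9.09% and 6.53%. Those called higher in both genotypes were SLC1A4, CTH, SLC1A5 and DMGDH. The serine and alanine transporter gene SLC1A4 went from 3.03 ± 1.55 to 32.3 ± 5.95 CPM in WT (SD, n = 3; log2 3.33, edgeR adjusted p = 7.34e-08) and from 3.43 ± 1.29 to 30.6 ± 2.02 CPM in QRICH1 KO (log2 3.15, edgeR adjusted p = 1.43e-07). CTH, which makes cysteine with carbon from serine, rose 9.14-fold in WT (edgeR adjusted p = 1.76e-08) and 6.05-fold in QRICH1 KO (edgeR adjusted p = 2.08e-07). The neutral amino acid transporter gene SLC1A5 rose 1.99-fold (edgeR adjusted p = 2.84e-06) and 1.45-fold (edgeR adjusted p = 0.00314). DMGDH, dimethylglycine dehydrogenase, was called on few reads, at 0.262 CPM in WT DMSO and 1.96 in WT Tm, and lost its knockout call without QRICH1 KO DMSO 2, QRICH1 KO Tm 1 or QRICH1 KO Tm 3, and without both libraries 3 of QRICH1 KO (adjusted p 0.0601 to 0.088).

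Genes that use folate or carry it into cells were among those that fell. TYMS, thymidylate synthase, was 29.8, 27.0 and 22.5 CPM in WT DMSO and 9.73, 9.59 and 9.27 CPM in WT Tm. The knockout libraries gave 34.9, 28.7 and 24.5 CPM under DMSO and 15.9, 17.7 and 15.6 CPM under Tm. Treatments did not overlap, and under Tm the knockout was above WT in every library. TYMS fell 2.76-fold in WT (log2 -1.46, edgeR adjusted p = 2.46e-06) and 1.79-fold in QRICH1 KO (log2 -0.84, edgeR adjusted p = 0.001). It was the 1 gene of the list called between genotypes under Tm, 1.71-fold higher in the knockout (SE 0.167 on the log2 scale, edgeR adjusted p = 0.0265), a call lost without any 1 of the 6 Tm libraries (adjusted p 0.0591 to 0.128).

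The mitochondrial citrate carrier gene SLC25A1 fell 2.46-fold in WT (edgeR adjusted p = 0.000384) and 1.87-fold in QRICH1 KO (edgeR adjusted p = 0.00954), the latter lost without QRICH1 KO DMSO 1 (log2 -0.67, adjusted p = 0.0606) or QRICH1 KO Tm 3 (-0.78, adjusted p = 0.0528). SFXN3, of the sideroflexin family that carries serine into mitochondria, fell by 0.63 on the log2 scale in WT (edgeR adjusted p = 0.00134) and by 0.54 in QRICH1 KO (edgeR adjusted p = 0.00677). The reduced folate carrier gene SLC19A1 fell by 0.41 on the log2 scale in WT (edgeR adjusted p = 0.0292) and by 0.72 in QRICH1 KO (edgeR adjusted p = 0.000734). The WT call was lost without WT DMSO 1 or 2 or WT Tm 1 or 3 (adjusted p 0.0838 to 0.129). The purine synthesis gene PFAS fell by 0.57 in WT (edgeR adjusted p = 0.0465), with libraries that overlapped and a call lost without WT DMSO 2 or 3, WT Tm 2 or 3, QRICH1 KO DMSO 2, or QRICH1 KO Tm 1 or 2 (adjusted p 0.0531 to 0.179), and with a replicate block (0.0515). The minor mitochondrial paralog MTHFD2L was not called in WT (log2 0.36, edgeR adjusted p = 0.306) or QRICH1 KO (0.31, edgeR adjusted p = 0.42), nor was ALDH1L1 (0.40 and 0.24, edgeR adjusted p = 0.336 and 0.624).

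The genes most like the main responders were found by Pearson correlation of log2 CPM over the 12 libraries, as a description in which 4 groups set most of the spread. PHGDH ran closest with the aminoacyl-tRNA synthetase genes YARS1 (r = 0.986), MARS1 (r = 0.986) and SARS1 (r = 0.981). PSAT1 ran closest with TRIB3, CDC6 and MOCOS (each r = 0.997). SHMT2 ran closest with WARS1, PDIA3 and HSPA5 (each r = 0.998), and MTHFD2 with HERPUD1, UGDH and HSPA5 (each r = 0.996). PCK2 ran closest with TXNDC15 (r = 0.996), SRPRA (r = 0.996) and SELENOS (r = 0.994). The nearest gene to ALDH1L2 was METTL15, at r = 0.896, from a profile of few reads.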

How the data were processed

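Bulk RNA libraries from HT29 cells, 4 groups of 3, were analysed from 1 table in which the authors deposited raw counts per gene. The submitters' processing notes name the trimmer Trimmomatic, the aligner STAR, the build hg38 and DESeq2. How reads were assigned to genes, with which annotation and strand setting, is not given in the sources used here. Coordinates are those of GENCODE 29 (hg38), to which 19972 of 20015 identifiers matched. Library totals were 6856736 to 17861844 counts, so the limit of 3 counts corresponds to 0.168 to 0.4375 CPM in a library (counting error only). No pair of libraries within a group was a duplicate (chi-square per degree of freedom 8.64 to 35.8).

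edgeR 4.0.16 (R 4.3.3) was fitted to all 12 libraries with 4 group means, TMM factors and filterByExpr at a minimum count of 10, which left 11323 genes. The quasi-likelihood test with Benjamini-Hochberg adjustment gave all adjusted p values; DESeq2 1.42.0 was an alternative. The scripts were tested on simulated data. Paralog ratios were formed per library after adding a prior count of 2, and were tested by exact permutation. The labels do not say whether libraries came from separate cultures on separate days, so p values measure the spread between these libraries. Alternatives were other scalings, filters, a replicate block, each library left out and the compared libraries alone.

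The 10 enzymes, the list of 48 related genes and the marker lists were chosen with earlier results of these data known. From the 48, the text names up to 4 genes with the largest change called in each direction of each comparison and the paralogs and partners MTHFD2L, ALDH1L1, PCK1 and TYMS; 1 other gene that the rule names is not reported here.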

Additional observations from a re-analysis of the deposited data

How the results depend on the processing

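Each member result was recomputed under 18 to 20 alternatives. Of 50 results for single enzymes, 43 stayed on their side of the threshold in all of them, and 0 changed direction while called. The number of enzymes called was 8 to 9 for Tm in WT, 8 in QRICH1 KO and 0 between genotypes under DMSO. Under Tm, 2 were called between genotypes; this was 1 with upper-quartile factors, 1 with the 6 Tm libraries alone, 1 without both libraries 3 of QRICH1 KO, 3 with DESeq2 and 0 to 2 with 1 library left out. DESeq2 called 3 interactions where edgeR called 0. The cause of these differences was not tested. Over all genes, the comparison between genotypes under Tm called 46 higher and 86 lower, against 126 and 153 without the filter, 87 and 202 with DESeq2, and 21 and 35 without QRICH1 KO Tm replicate 2, the fewest. Tm in QRICH1 KO called 1029 higher and 739 lower genes, against 720 and 389 without QRICH1 KO DMSO replicate 2. Under DMSO the genotype comparison called 2 and 9, against 76 and 62 without the filter, 24 and 36 with DESeq2, 40 and 19 without both libraries 3 of QRICH1 KO, and 26 and 13 without QRICH1 KO DMSO replicate 3. The interaction called 12 and 32 genes without the filter. No scaling moved the median of all genes by more than 0.041 in size.

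Replicate numbers did not pair the libraries throughout: same-numbered libraries correlated at -0.158 to 0.265 in their deviations. The highest values were between the Tm and DMSO libraries of QRICH1 KO, 0.213 for replicate 1 and 0.265 for replicate 3. Libraries of other numbers reached at most 0.036 and -0.038 there. Replicate 2 gave 0.002, beside 0.022. Whether such libraries were handled together was not tested. With a replicate block edgeR called 9 enzymes for Tm in WT, 8 in QRICH1 KO, 2 between genotypes under Tm, 0 under DMSO and 0 for the interaction. Under the replicate block the change with Tm was 2.692 for SHMT2 over SHMT1, 1.008 for MTHFD1L over MTHFD1 and 2.851 for MTHFD2 over MTHFD1, each at an adjusted p of 0.0833, because sign flips of 6 pairs allow fewer arrangements.

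DESeq2 gave no adjusted p for the interaction of ALDH1L2, and depth limits what its 6 to 48 counts can show.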
